A study of Arabidopsis thaliana with 18 samples.

Results

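The Aux/IAA repressors and the auxin-induced GH3 enzymes of Arabidopsis thaliana were compared between the mutant stch4-1 and wild-type Col-0 (WT), both sampled after 4 h at 4 °C. The members were chosen by gene identifier: 25 Aux/IAA genes and GH3.1, GH3.2, GH3.3, GH3.5 and GH3.6, together 30 of the 33557 genes in the deposited table. The members and the lists used below were chosen with earlier results of these data known. Their shares of calls are therefore no independent test. All seedlings were 14 days old and grown on agar with MS salts and sucrose, and the libraries were made from whole seedlings of 2 genotypes, with 3 libraries of stch4-1 and 3 of WT. The labels name 18 samples in 6 groups; samples taken at 0 h and at 24 h were not analysed here, so no value below describes a response to cold. The labels do not describe the lesion of stch4-1 or say whether it was checked in more than 1 line.

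Aux/IAA proteins are short-lived nuclear repressors that bind auxin response factors (ARFs) and recruit TOPLESS (TPL) co-repressors to them. Auxin joins an Aux/IAA protein to a TIR1/AFB F-box receptor through a short degron in the repressor, which is then ubiquitinated and degraded, releasing the ARFs. Most Aux/IAA genes and the GH3 genes studied here are themselves switched on by auxin, and these GH3 enzymes join indole-3-acetic acid, the main auxin, to amino acids, which removes it from the active pool. STCH4, also called REIL2, is a cytosolic zinc-finger protein of late 60S ribosomal subunit maturation.

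Aux/IAA transcripts differ in whether they encode the degron, so its core is shown for 4 of the genes that differed between the genotypes. The core letters are the residues glycine, tryptophan, proline, proline and then valine, isoleucine or leucine, and were read from 1 RefSeq protein-coding model per gene on assembly TAIR10.1. Of 25 Aux/IAA genes, 22 held all 5 residues of the core, written with 19 distinct strings of 15 bases; the last residue was leucine in IAA10 and valine or isoleucine in the other 21. IAA20, IAA30 and IAA31 did not hold it, while the LxLxL letters of the TPL-binding motif were present in the first 80 residues of 25 of 25. Below are the 15 core bases in capitals with 12 coding bases on either side, all 5′ to 3′ on the coding strand, which is the plus strand for these 4 genes. IAA1 (chromosome 4), IAA4 (chromosome 5) and IAA8 (chromosome 2) had higher transcript in stch4-1, and IAA28 (chromosome 5) had lower. The results for IAA1 and IAA8 depended on the processing, as given below.

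IAA1: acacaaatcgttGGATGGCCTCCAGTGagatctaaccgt
IAA4: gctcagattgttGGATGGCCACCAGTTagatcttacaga
IAA8: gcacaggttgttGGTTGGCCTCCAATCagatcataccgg
IAA28: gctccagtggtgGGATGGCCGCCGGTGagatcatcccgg

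The core starts at residue 58 of IAA1, 65 of IAA4, 168 of IAA8 and 51 of IAA28. Genes are said to be called where the limma adjusted p over all 19289 genes tested was under 0.05, as it was for 18.5% of genes higher in stch4-1 and 14.0% lower. Of the 21 tested genes with the core, leucine allowed, 9 were called higher, 2 lower and 10 were not called, and of the 2 tested genes without it 0 were called.

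Promoters are shown for the 6 members whose transcript was called higher in stch4-1 and whose 250 bases before the annotated start hold TGTCTC or TGTCGG. The letters searched on both strands were TGTCTC and TGTCGG (auxin response elements) and CACGTG (the G-box, bound by bZIP and bHLH factors). Among 27443 protein-coding genes, TGTCTC stood in 10.9% of such windows, TGTCGG in 4.16% and CACGTG in 6.49%. Among the 30 members, TGTCTC stood in 10 windows, TGTCGG in 6 and CACGTG in 5, and 14 held at least 1 of the first pair, against 14.7% of all windows. Of the 12 members called higher 6 held one, and of the remaining 18 members 8 did. The windows of IAA4, GH3.6 and IAA28 held neither of those letter strings. Capitals mark the searched letters on either strand, coordinates are those of TAIR10.1, and no matches overlapped.

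IAA19 on the plus strand, chr3:5263751-5264000: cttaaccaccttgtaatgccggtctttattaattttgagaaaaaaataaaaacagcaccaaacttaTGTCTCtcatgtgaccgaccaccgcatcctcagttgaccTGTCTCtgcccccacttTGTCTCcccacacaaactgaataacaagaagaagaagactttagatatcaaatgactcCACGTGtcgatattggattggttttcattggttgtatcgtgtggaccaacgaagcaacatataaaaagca
GH3.3 on the minus strand, chr2:9866563-9866812: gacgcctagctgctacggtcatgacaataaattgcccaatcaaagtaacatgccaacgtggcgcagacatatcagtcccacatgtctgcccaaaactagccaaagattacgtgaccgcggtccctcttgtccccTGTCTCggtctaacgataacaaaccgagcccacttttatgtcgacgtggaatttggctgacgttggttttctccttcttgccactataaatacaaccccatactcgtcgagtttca
GH3.5 on the plus strand, chr4:13653329-13653578: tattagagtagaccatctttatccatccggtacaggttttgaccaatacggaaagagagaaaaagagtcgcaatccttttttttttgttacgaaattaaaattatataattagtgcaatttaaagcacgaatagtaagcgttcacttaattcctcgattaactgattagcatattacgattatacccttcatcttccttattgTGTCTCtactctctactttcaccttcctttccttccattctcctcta
IAA1 on the plus strand, chr4:8360746-8360995: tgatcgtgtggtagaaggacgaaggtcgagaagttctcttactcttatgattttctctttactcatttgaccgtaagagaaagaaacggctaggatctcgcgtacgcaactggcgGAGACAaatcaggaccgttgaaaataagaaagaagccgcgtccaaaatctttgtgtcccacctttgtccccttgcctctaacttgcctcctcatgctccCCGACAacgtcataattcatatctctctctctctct
IAA8 on the plus strand, chr2:9636096-9636345: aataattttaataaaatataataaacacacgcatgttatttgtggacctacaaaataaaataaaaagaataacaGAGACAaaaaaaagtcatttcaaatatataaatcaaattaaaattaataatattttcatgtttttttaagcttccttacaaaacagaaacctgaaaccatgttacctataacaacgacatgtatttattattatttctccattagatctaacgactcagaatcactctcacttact
IAA16 on the minus strand, chr3:1290892-1291141: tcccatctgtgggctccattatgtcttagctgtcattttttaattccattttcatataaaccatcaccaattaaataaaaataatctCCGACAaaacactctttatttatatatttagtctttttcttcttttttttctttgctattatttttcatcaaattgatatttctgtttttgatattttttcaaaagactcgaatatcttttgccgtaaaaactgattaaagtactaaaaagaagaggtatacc

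In the IAA19 window TGTCTC stood 184, 145 and 128 bases before the start, beside 1 CACGTG. The GH3.3 window held it at 116 bases, the GH3.5 window at 47, and the IAA1 window held TGTCTC at 135 and TGTCGG at 36, both on the opposite strand. The IAA8 window held TGTCTC at 176 bases, and the IAA16 window held TGTCGG at 163. A match describes the letters and not binding.

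STCH4/REIL2 (AT2G24500) checked the labels: it read 5.65, 5.44 and 5.80 FPKM (fragments scaled to transcript length and library size) in stch4-1 against 31.2, 34.1 and 36.0 in WT (log2 fold change -2.39, limma adjusted p = 1.75e-06). Summed FPKM lay between 947218 and 987059 in stch4-1 libraries and between 878394 and 919309 in WT libraries. Relative depth, judged from the steps in low values, ranged from 1 to 1.45, and its lowest and highest libraries were both WT. The table gives no total counts. Calls below are at a limma adjusted p under 0.05 over all 19289 genes tested, and log2 fold changes are stch4-1 over WT on log2(FPKM + 1). Nothing in the labels says that the libraries of a group were separate cultures, so each p-value rests on the spread among these 3 libraries per group. The libraries are called a, b and c within each genotype.

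In stch4-1, 9 Aux/IAA genes and 3 GH3 genes had more transcript than in WT, and 2 Aux/IAA genes had less. The largest increases were those of GH3.5, by 1.51 times, IAA4, by 1.42 times, and GH3.3, by 1.35 times, and the larger decrease was that of IAA28, to 0.83 of WT, all as ratios of FPKM + 1. Of the 25 Aux/IAA genes 23 could be tested, and 12 of these were not called. Of the 5 GH3 genes, GH3.1 and GH3.2 were not called. The 28 tested members all read at least 1 FPKM in each of the 6 libraries, and IAA20 and IAA29 lay under 1 FPKM throughout.

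Set against all genes tested, 39.1% of the tested Aux/IAA genes were called higher, where the share over all genes was 18.5%, and 8.70% were called lower, where it was 14.0%. In either direction 32.6% of all genes were called. The median log2 fold change was 0.18 for Aux/IAA genes and 0.32 for GH3 genes, against 0.01 for all genes tested. The libraries of the genotypes did not overlap for 12 of 23 Aux/IAA genes and 4 of 5 GH3 genes, against 47.8% of all genes. For Aux/IAA genes that share, which pools both directions, was close to the background. By direction, 10 of the 23 lay higher and 2 lower in stch4-1, against 4851 higher and 4370 lower of 19289 genes. Under quantile normalization the calls over all genes turned from 56.9% higher to 45.7% higher. Then 7 Aux/IAA genes (30.4%) were called higher, against 13.6% of all genes, and 3 (13.0%) lower, against 16.1%. Their median was 0.07. With the GC trend removed, 5 of 23 Aux/IAA genes (21.7%) were called higher against 17.99% of all genes, with a median of 0.06, so their share was then near the background. With the length trend removed the share was 26.1% against 15.4% of all genes.

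**Figure D1:**
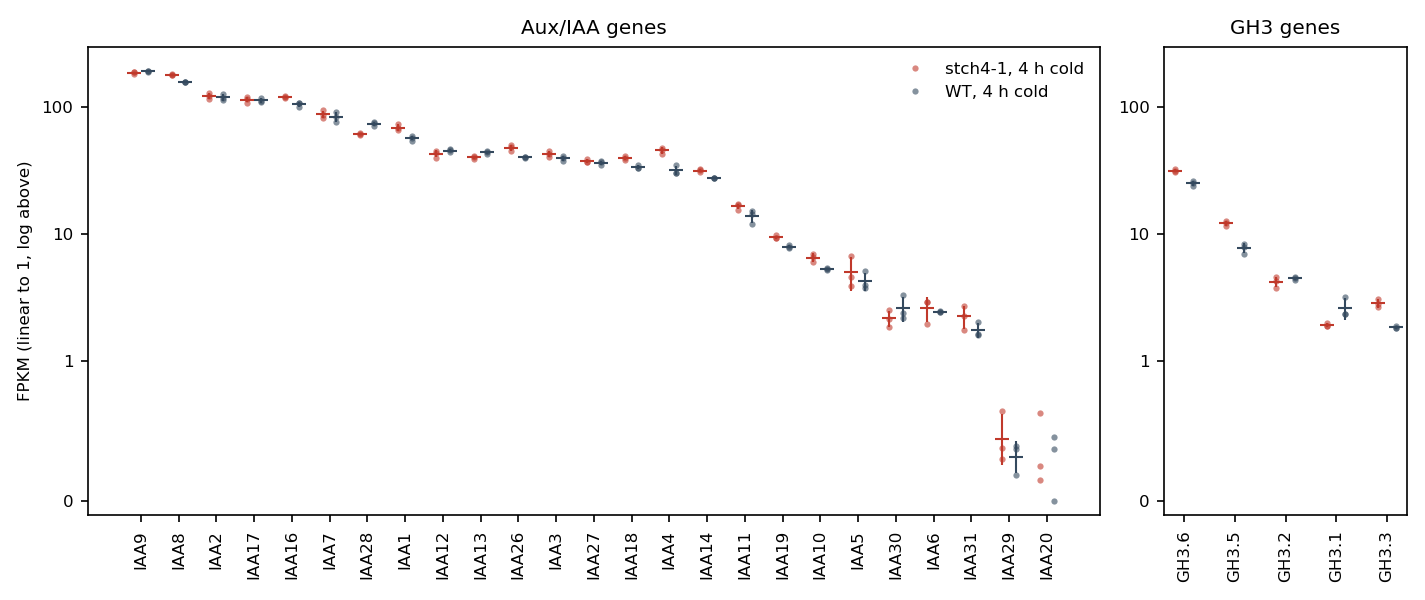
FPKM of the 25 Aux/IAA genes (left) and 5 GH3 genes (right), ordered by WT mean, on an axis that is linear up to 1 and logarithmic above it. Points are libraries, stch4-1 in red left of WT in blue-grey, bars give the mean ± SD of 3 libraries (no bar for IAA20, which is listed at 0 in 1 WT library). Levels run from IAA9 and IAA8, at 157.5 FPKM or more in every library, down to IAA29 and IAA20, and the order of the genes is nearly the same in both genotypes.

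Transcript levels, which are per length and so can be set beside each other, spanned over 2 orders of magnitude within the Aux/IAA family. IAA9, whose tomato counterpart acts in leaf and fruit development, read 189, 191 and 185 FPKM in stch4-1 against 193, 191 and 194 in WT. It was the highest member and the groups overlapped (log2 fold change -0.03, 95% interval -0.10 to 0.04). IAA9 gave 14.2% of the summed Aux/IAA FPKM in stch4-1 and 15.5% in WT, and IAA8 gave 13.7% in stch4-1 and 12.7% in WT. Next came IAA2, IAA17, IAA16 and IAA7, each between 77.2 and 129 FPKM, and the libraries of IAA2 and IAA17 overlapped with each other in both genotypes. Then came IAA28 and IAA1, with 8 genes from IAA12 to IAA14 between 27.7 and 50.2 FPKM below them. IAA11, IAA19, IAA10 and IAA5 lay between 3.75 and 17.1 FPKM, and IAA30, IAA6 and IAA31 between 1.61 and 3.29 FPKM.

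The summed FPKM of the 25 Aux/IAA genes was 1331, 1325 and 1312 in stch4-1 and 1243, 1249 and 1244 in WT. Every stch4-1 sum lay above every WT sum. As ppm of each library's own summed FPKM, which was also larger in stch4-1, the sums were 1387, 1398 and 1329 in stch4-1 and 1415, 1358 and 1393 in WT, and these overlapped. For the 5 GH3 genes the sums were 54.6, 52.2 and 51.3 FPKM in stch4-1 and 41.7, 43.1 and 40.4 in WT. In ppm the GH3 sums still lay apart, at 56.9, 55.1 and 52.0 in stch4-1 and 47.5, 46.8 and 45.2 in WT.

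IAA4 (AT5G43700), an auxin-induced repressor closely related to IAA3/SHY2, rose more than any other Aux/IAA gene. It read 46.2, 48.2 and 42.9 FPKM in stch4-1 and 34.99, 30.5 and 30.6 FPKM in WT. All stch4-1 libraries lay well above all WT libraries, with means of 45.8 ± 2.68 in stch4-1 and 32.0 ± 2.56 in WT (SD, n = 3 each; log2 fold change 0.50, SE 0.0661, limma adjusted p = 0.00114). IAA4 kept its call under every alternative run. IAA3 itself (AT1G04240), known for its action in the root meristem, read 40.5, 45.1 and 42.6 FPKM in stch4-1 and 41.4, 39.9 and 37.9 in WT. Its groups overlapped and it was not called (log2 fold change 0.10, 95% interval -0.02 to 0.22).

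IAA1 (AT4G14560), in which the stabilising axr5 mutation lies, had 73.9, 68.4 and 65.8 FPKM in stch4-1 and 59.1, 54.6 and 57.4 in WT. The groups lay apart (log2 fold change 0.28, SE 0.0518, limma adjusted p = 0.00537). IAA14 (AT4G14550), the SOLITARY-ROOT repressor of lateral root initiation, had 32.7, 30.6 and 31.8 FPKM in stch4-1 and 27.8, 27.8 and 27.7 in WT. The WT libraries were nearly equal and all lay under the stch4-1 libraries (log2 fold change 0.18, SE 0.0409, limma adjusted p = 0.0117). IAA1 and IAA14 are next to each other on chromosome 4 with no protein-coding gene between them and face away from each other. The same arrangement holds IAA3 beside IAA17 on chromosome 1 and IAA2 beside IAA7 on chromosome 3, and none of those 4 genes was called. The IAA1 call was lost with the length trend removed (0.15, limma adjusted p = 0.0759) and the IAA14 call with the GC trend removed (0.06, limma adjusted p = 0.305).

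IAA8 (AT2G22670), the second most abundant repressor, read 182, 182 and 181 FPKM in stch4-1 and 160, 158 and 158 in WT. The spread within each genotype was small and the groups lay apart (log2 fold change 0.19, SE 0.0294, limma adjusted p = 0.00214). IAA16 (AT3G04730), another abundant repressor, read 119, 121 and 124 FPKM in stch4-1 and 101, 108 and 108 in WT. Again every stch4-1 library was above every WT library (log2 fold change 0.19, SE 0.0403, limma adjusted p = 0.00867). Both calls were lost under quantile normalization, IAA8 at 0.04 (limma adjusted p = 0.427) and IAA16 at 0.07 (limma adjusted p = 0.219), and IAA16 also with the GC trend removed (0.10, limma adjusted p = 0.101).

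IAA18 (AT1G51950), in which the crane mutations affect embryo and lateral root formation, had 39.5, 41.2 and 38.4 FPKM in stch4-1 and 35.3, 33.3 and 33.3 in WT. IAA26 (AT3G16500), a repressor that the tobacco mosaic virus replicase also binds, had 48.6, 50.2 and 45.0 FPKM in stch4-1 and 40.0, 40.9 and 40.4 in WT. For both genes the stch4-1 libraries were the higher ones without overlap. The log2 fold change of IAA18 was 0.22 (SE 0.0449, limma adjusted p = 0.00791). That of IAA26 was 0.24 (SE 0.0471, limma adjusted p = 0.00671). With the GC trend removed neither was called, at 0.11 (limma adjusted p = 0.0691) for IAA18 and 0.12 (limma adjusted p = 0.0592) for IAA26.

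IAA19 (AT3G15540), the MASSUGU2 repressor that acts with ARF7 in hypocotyl bending, read 9.31, 9.22 and 9.76 FPKM in stch4-1 and 8.15, 7.79 and 7.89 in WT. The groups did not overlap (log2 fold change 0.22, SE 0.0574, limma adjusted p = 0.021). IAA10 (AT1G04100) read 6.99, 6.57 and 5.99 FPKM in stch4-1 and 5.29, 5.40 and 5.15 in WT. Its lowest stch4-1 library still exceeded its highest WT library (log2 fold change 0.26, SE 0.0743, limma adjusted p = 0.0312). These calls were close to the threshold. IAA19 missed the threshold when stch4-1 a, stch4-1 c, WT b or WT c was left out (limma adjusted p from 0.054 to 0.0611) or with the length trend removed (0.10), and IAA10 did so when stch4-1 a, stch4-1 b or any WT library was left out (limma adjusted p from 0.0599 to 0.104), with the length trend removed (0.19) or without the filter (0.26).

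IAA28 (AT5G25890), a repressor of lateral root formation expressed mainly in roots, fell in stch4-1. It read 60.4, 62.8 and 61.9 FPKM in stch4-1 and 71.6, 76.4 and 75.6 FPKM in WT. All stch4-1 libraries lay under all WT libraries, with means of 61.7 ± 1.24 in stch4-1 and 74.5 ± 2.59 in WT (SD, n = 3 each; log2 fold change -0.27, SE 0.0391, limma adjusted p = 0.00184). Its call held under every alternative, at -0.32 with the length trend removed, -0.38 with the GC trend removed and -0.36 under quantile normalization. In libraries of whole seedlings, fewer cells of a type and less RNA per cell cannot be told apart. Of 20 tested genes on a list of root markers, 11 (55.0%) were called lower in stch4-1, against 14.0% of all genes tested. Those called higher numbered 0, and the median log2 fold change of the list was -0.30. The list was chosen with earlier results of these data known, so its share of calls is no independent measure of root content. Summed over the 25 listed root markers, FPKM was between 298 and 302 in stch4-1 and between 370 and 383 in WT, and no listed root marker was at 0 in every library. The part of root content in the IAA28 value was not tested.

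IAA13 (AT2G33310), which shares with IAA12/BODENLOS a role in embryonic root formation, read 39.0, 40.3 and 41.3 FPKM in stch4-1 and 44.2, 42.8 and 45.6 in WT. The groups were narrowly apart (log2 fold change -0.13, SE 0.0418, limma adjusted p = 0.0416). The call was lost when stch4-1 a, stch4-1 b, WT a or WT c was left out (limma adjusted p from 0.0886 to 0.134), with the length trend removed (-0.09) and without the variance trend (-0.13). IAA12 (AT1G04550) had 43.9, 45.2 and 40.1 FPKM in stch4-1 and 46.5, 44.1 and 45.8 in WT, with overlapping groups (log2 fold change -0.08, 95% interval -0.20 to 0.04).

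**Figure D2:**
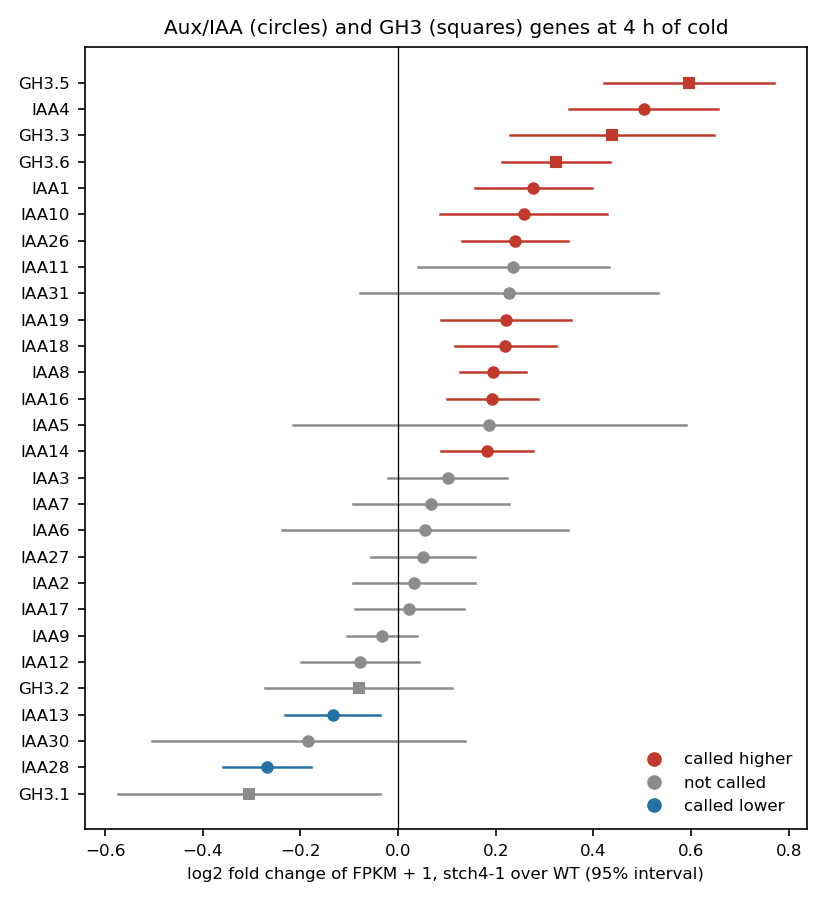
Log2 fold change of FPKM + 1 in stch4-1 over WT for the 28 tested genes, with 95% intervals that are not adjusted for the number of genes, Aux/IAA as circles and GH3 as squares, red for called higher, blue for called lower and grey for not called. GH3.5, IAA4, GH3.3 and GH3.6 lie furthest to the right and IAA28 and IAA13 are the only ones called lower; the intervals of IAA11 and GH3.1 leave out 0 although their adjusted p was above 0.05.

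Among the 12 tested Aux/IAA genes that were not called, log2 fold changes ran from -0.18 for IAA30 to 0.24 for IAA11. IAA11 (AT4G28640), the nearest relative of IAA10, read 15.6, 17.1 and 16.8 FPKM in stch4-1 and 14.5, 15.2 and 12.1 in WT, without overlap (limma adjusted p = 0.0659). It was called without WT b (0.30, limma adjusted p = 0.0416). IAA9 was called lower under quantile normalization (-0.17, limma adjusted p = 0.00719) and under no other setting. For 3 abundant repressors the intervals were narrow and held 0: IAA2 (AT3G23030; 129, 123 and 116 FPKM in stch4-1, 127, 114 and 119 in WT) had an interval of -0.09 to 0.16, IAA17/AXR3 (AT1G04250; 117, 109 and 120 in stch4-1, 110, 119 and 112 in WT) of -0.09 to 0.13, and IAA7/AXR2 (AT3G23050; 86.8, 83.2 and 94.7 in stch4-1, 77.2, 91.4 and 84.1 in WT) of -0.09 to 0.23. IAA27, which that viral replicase also binds, lay at 0.05 (interval -0.06 to 0.16).

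The low Aux/IAA genes gave wide intervals. IAA5 read 6.71, 4.56 and 3.86 FPKM in stch4-1 and 3.92, 3.75 and 5.06 in WT, so that the genotypes overlapped (interval -0.22 to 0.59). IAA6, IAA30 and IAA31 likewise overlapped between genotypes, with intervals of -0.24 to 0.35 for IAA6, -0.50 to 0.14 for IAA30 and -0.08 to 0.53 for IAA31. IAA20 was at 0.627, 0.248 and 0.150 FPKM in stch4-1 and 0.459, 0 and 0.368 in WT, and IAA29 at 0.379, 0.298 and 0.643 in stch4-1 and 0.183, 0.391 and 0.369 in WT. Neither reached the filter; in the fit without it, neither was called, IAA20 at 0.08 (limma adjusted p = 0.808) and IAA29 at 0.13 (limma adjusted p = 0.453).

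Of the GH3 enzymes, GH3.5 (AT4G27260), also called WES1, which acts on auxin and on salicylic acid, showed the largest change of all 28 tested members. It read 12.8, 12.2 and 11.6 FPKM in stch4-1 and 6.96, 8.37 and 7.90 FPKM in WT. The lowest stch4-1 library was well above the highest WT library, with means of 12.2 ± 0.564 in stch4-1 and 7.74 ± 0.718 in WT (SD, n = 3 each; log2 fold change 0.60, SE 0.0757, limma adjusted p = 0.000978). GH3.6 (AT5G54510), also called DFL1 after a mutant with short hypocotyls, was the most abundant of the 5, with 59.9% of their summed FPKM in stch4-1 and 60.1% in WT. It read 32.5, 31.3 and 30.9 FPKM in stch4-1 and 26.2, 25.1 and 23.9 in WT. The groups again lay apart (log2 fold change 0.32, SE 0.048, limma adjusted p = 0.00197).

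GH3.3 (AT2G23170), which with GH3.5 and GH3.6 is known from adventitious rooting, was low in both genotypes and rose: it had 2.79, 2.64 and 3.08 FPKM in stch4-1, against 1.89, 1.81 and 1.80 in WT. The groups did not overlap (log2 fold change 0.44, SE 0.0902, limma adjusted p = 0.00816). GH3.1 (AT2G14960) had 1.98, 1.86 and 1.88 FPKM in stch4-1 and 2.32, 3.204 and 2.33 in WT. All its stch4-1 libraries were under the WT libraries, 1 of which stood above the other two, and it was not called (log2 fold change -0.31, 95% interval -0.57 to -0.04, limma adjusted p = 0.0794). GH3.2 (AT4G37390), also called YDK1, read 4.56, 4.22 and 3.78 FPKM in stch4-1 and 4.35, 4.61 and 4.46 in WT, with overlap (log2 fold change -0.08, 95% interval -0.27 to 0.11). GH3.2 was above GH3.3 in every library of both genotypes, with means of 4.18 and 2.84 FPKM in stch4-1 and 4.47 and 1.83 FPKM in WT.

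The 3 GH3 calls stood under every alternative in which the gene was tested. GH3.5 lay at 0.65 with the length trend removed, 0.63 with the GC trend removed and 0.61 under quantile normalization. The matching values were 0.47, 0.48 and 0.47 for GH3.3, and 0.37, 0.34 and 0.28 for GH3.6. Of 14 called members, 5 kept their call under every one of the 14 alternatives in which they were tested: IAA4, IAA28, GH3.3, GH3.5 and GH3.6.

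**Figure D3:**
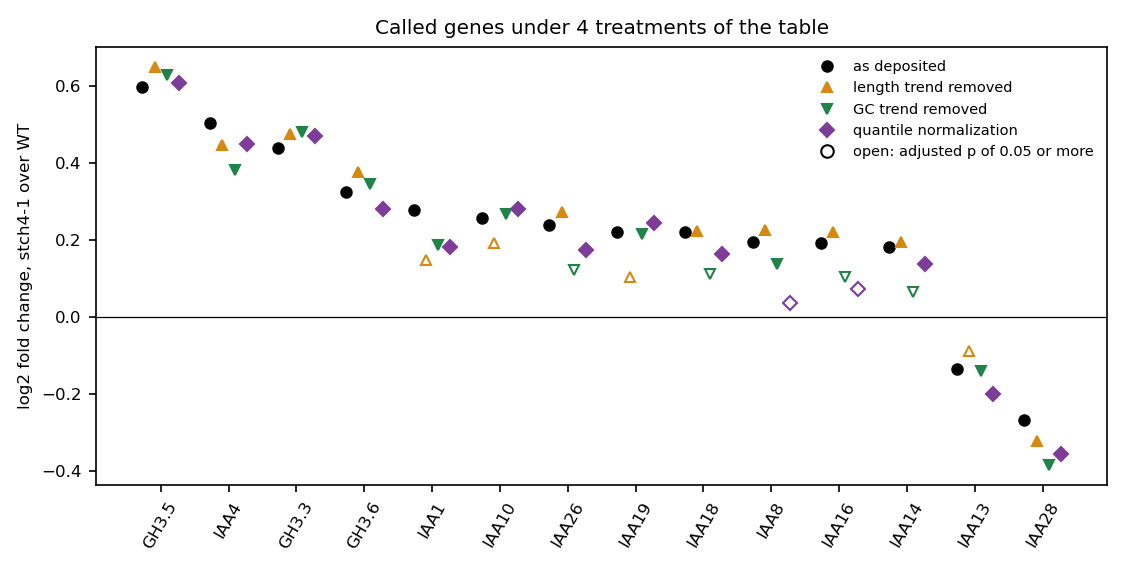
Log2 fold change in stch4-1 over WT of the 14 called members with the values as deposited (black circles), with the trend over exon length removed (orange), with the trend over GC content removed (green) and after quantile normalization (purple); open symbols have an adjusted p of 0.05 or more. The 4 genes at the left and IAA28 at the right keep filled symbols throughout, and the 9 genes between them each have at least 1 open symbol.

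Fold changes over all genes fell with exon length, and the members are not spread evenly over it. In the shortest of 5 equal length bins of tested genes, from 102 to 1145 bases, the median log2 fold change was 0.15 and 33.1% were called higher; in the longest bin the median was -0.11 and 5.85% were called higher. Of the 6 members in the shortest bin 2 were called higher (IAA1 and IAA19), and of the 9 members in the next bin, where 24.0% of all genes were called higher, 2 were (IAA4 and IAA10). The fourth bin, from 1959 to 2566 bases, held 10 members, the 5 GH3 genes among them. There 6 members were called higher and 1 lower, against 12.6% higher and 16.7% lower over all genes of that length. With the length trend removed, 6 Aux/IAA genes were called higher and 1 lower (median 0.08) and 3 GH3 genes higher (median 0.37).

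Close relatives often fell on different sides of the threshold. Of the 28 tested members 14 were called. By identity of their coding bases the members formed 11 pairs of mutually nearest genes. In 2 pairs both genes were called higher: IAA18 and IAA26 (74.3% identical) and GH3.5 and GH3.6 (84.1% identical). In 8 pairs 1 gene was called and the other was not, among them IAA1 beside IAA2 (78.7%), IAA4 beside IAA3 (76.1%), IAA14 beside IAA7 (80.2%) and GH3.3 beside GH3.2 (79.8%). Some of the 8 had near fold changes, such as IAA10 and IAA11 (0.26 and 0.24) and IAA13 and IAA12 (-0.13 and -0.08). No pair was called in opposite directions. The differences between the fold changes of 2 genes of a pair were not tested, and how reads that match both were counted is not given in the sources used here.

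The rest of the auxin pathway was described from lists of receptors, factors, co-repressors, synthesis, transport and turnover genes. Early auxin targets and the remaining Aux/IAA and GH3 genes were counted with them. The remaining GH3 genes were taken as a family whatever their substrate, with JAR1 and PBS3 among them. Of 64 tested genes on these lists 10 (15.6%) were called higher and 18 (28.1%) lower, with a median log2 fold change of -0.06. Over all genes tested 18.5% were called higher and 14.0% lower, which is also the background of each list below. With the length trend removed, 15 (23.4%) were higher and 5 (7.8%) lower, so that the balance of directions turned. The shares over all genes were then 15.4% higher and 10.9% lower. Of 6 tested TIR1/AFB receptor genes 3 were called higher and 0 lower: the auxin receptor TIR1 averaged 27.0 ± 1.15 FPKM in stch4-1 and 21.9 ± 1.04 in WT (SD, n = 3 each; log2 fold change 0.29, limma adjusted p = 0.00481). AFB5, a receptor known for its response to picloram, was at 26.1 ± 0.423 FPKM in stch4-1 and 23.2 ± 0.368 in WT (0.16, limma adjusted p = 0.0172), a call lost under quantile normalization (limma adjusted p = 0.0569), without WT a (limma adjusted p = 0.051) and without stch4-1 a (limma adjusted p = 0.0616). The third, AFB3 (0.17, limma adjusted p = 0.0317), was not called under quantile normalization (limma adjusted p = 0.0533) or with any 1 library left out (limma adjusted p from 0.0534 to 0.092). TIR1 was therefore the 1 receptor still called under quantile normalization, without WT a and without stch4-1 a.

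Of 15 ARF genes, which encode auxin response factors, 2 were called higher and 7 lower, with a median of -0.18. ARF10, a target of miR160, averaged 17.8 ± 0.884 FPKM in stch4-1 and 14.4 ± 0.319 in WT (0.29, limma adjusted p = 0.00524). ARF9 averaged 11.5 ± 0.698 FPKM in stch4-1 and 14.7 ± 0.382 in WT (-0.33, limma adjusted p = 0.00454), and it was called under every alternative. The ARF genes were 3 higher and 1 lower with the length trend removed. With the GC trend removed, and with any library but WT c left out, ARF10 was the 1 ARF gene called higher. The ARF genes called lower numbered 4 with stch4-1 b left out, and 5 to 7 with another library left out. Of 5 genes of the TPL co-repressors 3 were called lower, TPL itself at 32.8 ± 0.0713 FPKM in stch4-1 and 39.1 ± 0.757 in WT (-0.25, limma adjusted p = 0.00203) and TPR4 at 22.8 ± 0.241 FPKM in stch4-1 and 25.3 ± 0.305 in WT (-0.14, limma adjusted p = 0.0266). These are long transcripts, and with the length trend removed neither was called, TPL at -0.07 and TPR4 at 0.04, where 1 gene of the list was higher and 0 lower. TPR4 was also not called with the GC trend removed or when any 1 of the 6 libraries was left out (limma adjusted p from 0.0511 to 0.0819). The third, TPR1 (-0.20), was not called with any library but stch4-1 c left out, so that TPL was then the 1 gene of the list called.

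**Figure D4:**
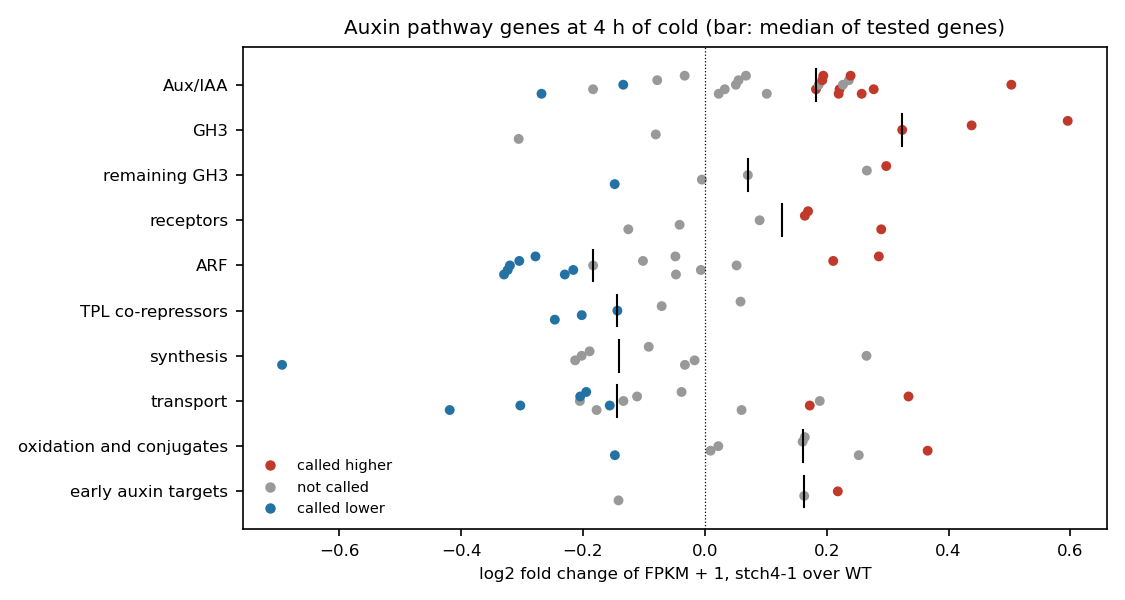
Log2 fold change of FPKM + 1 in stch4-1 over WT for tested genes of the Aux/IAA and GH3 families and of 8 further auxin lists, 1 point per gene, red for called higher, blue for called lower and grey for not called, with a bar at each list's median. Medians lie right of 0 for Aux/IAA (0.18) and GH3 (0.32) and left of 0 for ARF (-0.18), TPL co-repressors (-0.14), synthesis (-0.14) and transport (-0.14).

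Of 8 tested auxin synthesis genes, the flavin monooxygenase gene YUC3 was the 1 called lower, at 2.12 ± 0.269 FPKM in stch4-1 and 4.05 ± 0.528 in WT (-0.69, limma adjusted p = 0.00296), and 0 were called higher. Among 14 tested transport genes 2 were higher and 5 lower, and the lower ones numbered 3 without WT a, WT c or stch4-1 a. With the length trend removed 4 transport genes were higher and 2 lower, so that the balance of directions turned. The efflux carrier PIN3 averaged 48.1 ± 3.175 FPKM in stch4-1 and 38.0 ± 2.65 in WT (0.33, limma adjusted p = 0.00649), and the influx carrier LAX3 averaged 15.3 ± 0.635 FPKM in stch4-1 and 20.7 ± 0.946 in WT (-0.42, limma adjusted p = 0.00111). Among 7 tested genes on the list of auxin oxidation and conjugates, which also holds UGT74D1 and IAMT1, 1 was called higher and 1 lower. ILR1, which frees auxin from amino acid conjugates, averaged 8.50 ± 0.524 FPKM in stch4-1 and 6.37 ± 0.109 in WT (0.37, limma adjusted p = 0.0047), and the dioxygenase gene DAO2 averaged 20.5 ± 0.655 FPKM in stch4-1 and 22.9 ± 0.247 in WT (-0.15, limma adjusted p = 0.0352). The DAO2 call was lost when stch4-1 b, stch4-1 c or any WT library was left out (limma adjusted p from 0.0685 to 0.0965).

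Of 5 tested GH3 genes outside the auxin-induced members described above, DFL2 was called higher, at 57.3 ± 1.63 FPKM in stch4-1 and 46.5 ± 3.08 in WT (0.30, limma adjusted p = 0.00455). GH3.17, which makes the glutamate conjugate of auxin, was called lower, at 28.1 ± 0.176 FPKM in stch4-1 and 31.2 ± 1.21 in WT (-0.15, limma adjusted p = 0.0319). That call was lost with the length trend removed (-0.07), without the variance trend, and with any stch4-1 library, WT a or WT c left out (limma adjusted p from 0.0709 to 0.0919). Of 4 further Aux/IAA genes 1 could be tested, and it was not called. Of 9 listed early auxin targets 3 could be tested, and the homeobox gene HAT2 was called higher, at 55.1 ± 1.08 FPKM in stch4-1 and 47.2 ± 0.311 in WT (0.22, limma adjusted p = 0.00267).

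Markers of seedling parts were read beside these genes. The called root markers ran from LRX1, a wall protein of root hairs, at 4.43 ± 0.990 FPKM in stch4-1 and 11.3 ± 1.08 in WT (-1.19, limma adjusted p = 0.000638), to PHO1, which loads phosphate into the root xylem, at 43.4 ± 1.32 FPKM in stch4-1 and 52.0 ± 2.24 in WT (-0.26, limma adjusted p = 0.00407). The 9 not called were CASP4 (-0.52), BRN1 (-0.16), RSL4 (-0.15), COBL9 (-0.11), SHR (0.01), EXPA7 (0.03), MYB36 (0.08), EXPA18 (0.21) and RHD6 (0.23). Under other settings RHD6 and EXPA18 were called higher, and CASP4 and RSL4 lower. The CASP1 call was lost without the variance trend, without the filter and with stch4-1 a, stch4-1 b, WT b or WT c left out. The CASP2 call was lost with stch4-1 b, stch4-1 c, WT a or WT b left out. Of 10 leaf markers 2 were called higher, RBCS2B (0.27) and GAPA1 (0.20). That share of 20.0% was close to the 18.5% of all genes tested. Neither was called higher under quantile normalization, where 0 leaf markers were higher and 3 lower. RBCS2B, whose near-identical copies can share reads, was also not called with stch4-1 a, stch4-1 c, WT a or WT c left out (limma adjusted p from 0.0567 to 0.0786), with the length trend removed or without the filter. The summed leaf markers overlapped, from 42247 to 52524 FPKM in stch4-1 and from 40372 to 49329 in WT. Of 3 tested shoot apex markers KNAT1 (-0.46) and ANT (-0.23) were called lower. STM (0.21) was not called, and all its stch4-1 libraries lay above those of WT. The 9 listed apex markers summed to between 21.5 and 23.7 FPKM in stch4-1 and between 25.2 and 28.7 in WT. CLV3 was listed at 0 in all 6 libraries. The ANT call was lost with stch4-1 a, WT b or WT c left out (limma adjusted p from 0.0504 to 0.0574). What part the makeup of the seedlings has in the Aux/IAA and GH3 values was not tested.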

How the data were processed

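RNA of whole seedlings was sequenced on an Illumina instrument after Trizol extraction and DNase treatment, per the labels' protocols. The authors deposited FPKM values for 33557 genes; TopHat2, Cufflinks and TAIR10 were used, per the submitters' processing notes, and for versions, filters, strand and shared reads nothing is stated. FPKM holds no counts, so no depth or counting interval is given; a relative depth was read from the steps of low values. Of 18 samples named in the labels, the 6 libraries of the 4 h groups have columns. Column names gave genotype and time, and libraries are called a, b and c because their numbers (0 to 2) are not those of the sample titles.

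Genes reaching 1 FPKM in 3 or more of the 6 libraries were kept (19289) and analysed as log2(FPKM + 1), which understates changes of low genes. The fit used limma 3.58.1 in R 4.3.3 with 2 group means, a variance trend in eBayes, two-sided p-values and the Benjamini-Hochberg method across the genes kept; the design written for 18 libraries was fitted to 6. It was tested on simulated data. Errors are SDs of 3 libraries, and 95% intervals come from the moderated fit. Exon lengths, GC, coding sequences and the 250 bases before each start came from RefSeq on TAIR10.1 (32810 identifiers found, 30 of 30 members); its nuclear chromosomes equal TAIR10 in length. Sequence and table work used Python 3.11.15, pandas 2.3.3 and Biopython 1.88.

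The members and the lists were chosen with earlier results of these data known. Library values are given for members called, for the 3 most abundant and for those that gain or lose a call, some others were added after their values were seen, and each further list gives its highest and lowest called gene. Alternatives were a pseudocount of 0.1, no filter, a mean of at least 5 FPKM, median-ratio scaling, quantile normalization, eBayes without trend, removal of a lowess trend (span 0.3) over exon length or GC, and leaving out each library.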

Additional observations from a re-analysis of the deposited data

How the results depend on the processing

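The GH3 genes gave 3 calls higher and 0 lower under 13 of 14 alternatives; with a mean of at least 5 FPKM, GH3.3 was not tested and 2 remained. Aux/IAA genes called higher numbered 9, but 5 with the GC trend removed, 6 with the length trend removed and 7 under quantile normalization. Leaving out a library gave 7 to 8, and without the filter IAA10 was no longer called. Aux/IAA genes called lower numbered 2, but 3 under quantile normalization, 1 with the length trend removed and 1 with eBayes without trend. They numbered 1 to 2 when a library was left out. In the further auxin lists 18 genes were called lower, but 5 with the length trend removed and 10 to 14 when a library was left out; those called higher numbered 10, but 15 with the length trend removed and 7 to 9 when a library was left out. Over all genes 3576 were called higher and 2704 lower, and leaving out a library gave 2628 to 3260 higher and 1826 to 2273 lower. The cause of these shifts was not tested. FPKM gives no counts, so what could be detected in IAA20, IAA29 and other low genes cannot be put as a limit. No paired analysis was possible because the columns do not carry the replicate numbers of the labels.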
